A study of Rattus norvegicus with 48 samples.

Results

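Kidney gene expression in strain F rats was compared with that in strain L rats after carrier alone, the untreated state of both strains. The arrays were taken by title, F-00-1 to F-00-4 and L-00-1 to L-00-4, which gave 8 of the 48 arrays of the study, 4 per strain. The whole study has 12 groups of 4 arrays, one for each of the strains F, L, FL and LF on day 0, on day 7 and on day 10. F-00 and L-00 rats were male, 12 weeks old in the sample labels and 12 to 14 weeks old in the protocol, and were gavaged with vegetable oil. FL-00 and LF-00 rats, used below as a further pair, received the same carrier. F-07, L-07, F-10 and L-10 rats received indole-3-carbinol (I3C) at 100 mg/kg/day by gavage for 7 or 10 days. The labels give 8 rats per group and do not say whether an array holds RNA of a single rat or of a pool, so each p-value rests on the spread among arrays, which may be technical. The strain names are not expanded in the labels. From knowledge outside them, F and L are understood to be Fischer and Lewis backgrounds, FL and LF to carry an exchanged chromosome stretch around Ace, and all 4 strains to carry a transgene under the Cyp1a1 promoter, which I3C switches on and which the carrier groups carry as well.

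Ace encodes angiotensin-converting enzyme, which cuts angiotensin I to the vasoconstrictor angiotensin II. Angiotensin I is itself cut from angiotensinogen, the product of Agt. In the rat kidney most filtered solutes are taken up by the proximal tubule, which also holds cytochrome P450 enzymes, aldo-keto reductases, medium-chain acyl-CoA synthetases and sulfotransferases that metabolise drugs, steroids and organic acids. Inbred rat strains differ by fixed alleles across the genome, so a strain comparison reads many loci at once.

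A value below is a log2 array signal, and a difference is F minus L on that scale. A gene was called when its limma p, adjusted by Benjamini-Hochberg over 7997 genes, was under 0.05. Each SE and limma p uses a spread shared by all 12 groups, the I3C groups included. It can therefore differ from the spread within F and L. Cyp2c11 had an SD of 0.29 in F and 0.23 in L but an SE of 0.40. Klk1c9 had an SD of 0.65 in F and 0.91 in L but an SE of 0.32. The median signal of an array was 6.36, 6.42, 6.34 and 6.36 in F, against 6.46, 6.49, 6.56 and 6.18 in L. The means were 6.37 ± 0.0349 in F and 6.42 ± 0.17 in L (SD, n = 4 each), with an exact two-sided permutation p of 0.6, the smallest possible being 0.0286. Replicate 4 of L stood apart from its group. Its deviations from the means of all 48 arrays correlated at a mean of -0.111 with the other L arrays, against 0.165 to 0.191 for the 3 other L arrays with their group and 0.156 to 0.206 for the F arrays. Without it the array medians differed by -0.13 (exact permutation p = 0.0286). The count of calls and the list results that changed are therefore also given without this array. Kidney markers were strong in both strains: uromodulin (Umod) averaged 12.86 ± 0.09 in F and 12.84 ± 0.08 in L, the phosphate transporter Slc34a1 11.87 ± 0.05 in F and 11.89 ± 0.07 in L, megalin (Lrp2) 12.03 ± 0.02 in F and 11.94 ± 0.08 in L, and aquaporin 2 (Aqp2) 10.35 ± 0.06 in F and 10.22 ± 0.15 in L (SD, n = 4 each). The mean signal of the liver markers was 3.41 to 3.70 in F and 3.56 to 3.68 in L, below the array medians, and that of the adrenal markers 3.67 to 3.71 in F and 3.58 to 3.79 in L.

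Of 7997 genes 108 were called (1.35%), 46 higher in F (0.575%) and 62 lower in F (0.775%). The largest rises in F among genes read by 3 or more probe sets were Akr1c2, Akr1b8, Gp2, Tspan1 and Ace, and the largest falls were Cyp2d5, Acsm5, Klk1c9, Cyp2c11 and Lcn2. Most called differences were moderate, with a median size of 0.77, and 33 exceeded 1 on the log2 scale, 14 higher and 19 lower in F. The 4 F and 4 L arrays did not overlap in 105 of the 108, as in 446 of all genes (5.58%). The called genes with overlap, chosen after their values were seen, were Hmox2, Synrg and Tifab. In all, 669 genes had an unadjusted p under 0.05 (8.37%), the called ones included. Leaving out replicate 4 of L gave 114 calls, 37 higher and 77 lower in F, with 91 of the 108 among them. Leaving out replicate 4 of F gave 70 calls, 67 of them shared.

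**Figure D1:**
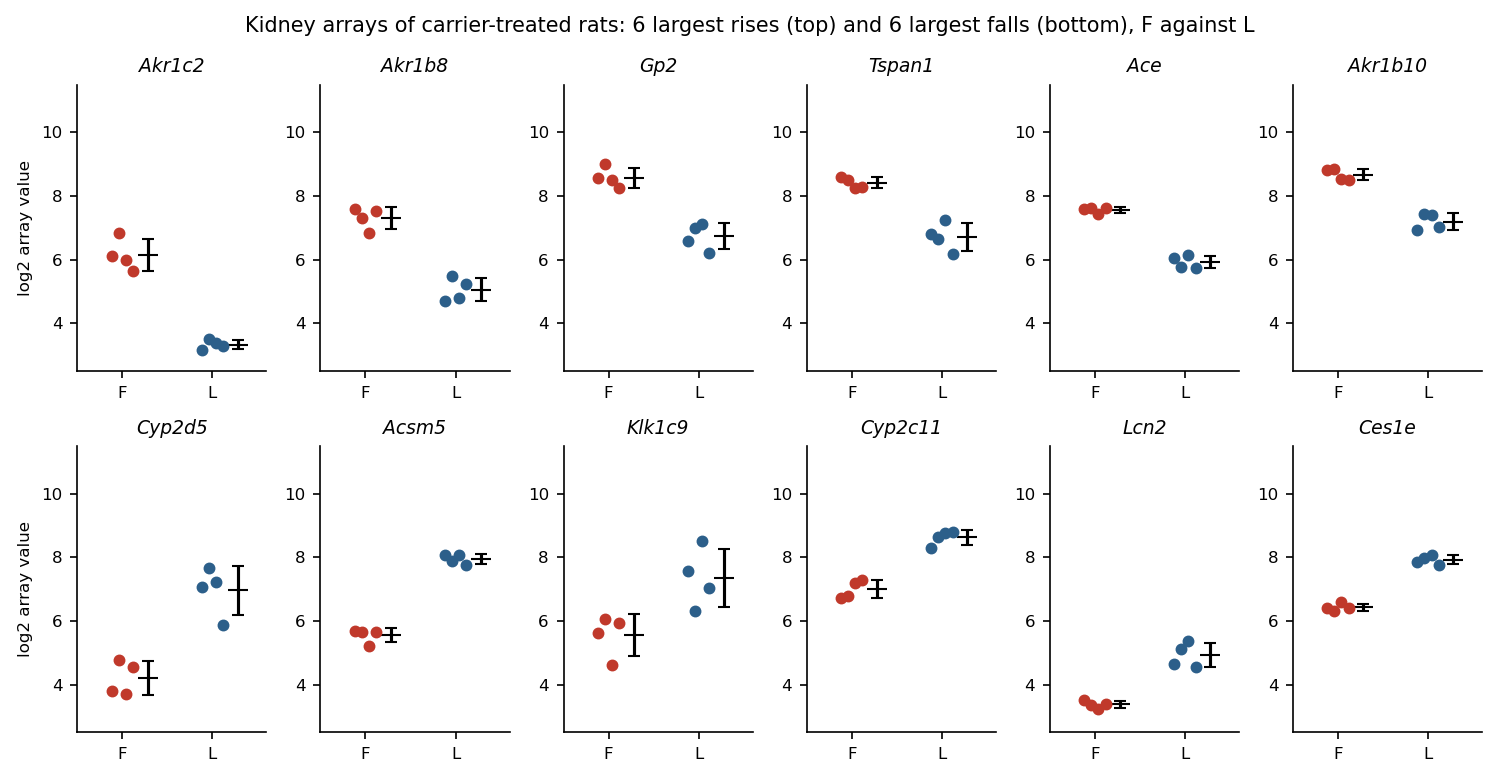
Log2 array values (y axis, the same range in every panel) of the 6 largest rises (top row) and 6 largest falls (bottom row) in carrier-treated rats, with F to the left of L. Points are single arrays, horizontal marks the mean and bars the SD of 4 arrays; in all 12 genes the F and L points do not overlap, and replicate 4 of L, the rightmost L point, is the lowest of the 4 L points in Gp2, Tspan1, Ace, Cyp2d5, Acsm5, Lcn2 and Ces1e.

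Among genes of the angiotensin system, Ace was higher and Agt lower in F. Ace read 7.58, 7.61, 7.42 and 7.61 in F, against 6.04, 5.77, 6.15 and 5.74 in L. Every F array thus lay above every L array. The means were 7.55 ± 0.09 in F and 5.92 ± 0.20 in L (SD, n = 4 each), a difference of 1.63 ± 0.16 (SE) or 3.1-fold (limma adjusted p = 2e-09). Agt read 7.53, 7.1, 7.27 and 7.11 in F, against 8.39, 8.23, 8.1 and 7.78 in L, again without overlap. Its difference was -0.87 ± 0.14 (SE; limma adjusted p = 7.6e-05), 1.83-fold lower in F. Ctsd, a lysosomal aspartic protease, was 0.29 higher in F (limma adjusted p = 0.0245), a call lost without replicate 2, 3 or 4 of F or replicate 2 or 4 of L (adjusted p 0.0734 to 0.119 over these). The list of 12 measured genes thus held 2 higher and 1 lower call, with a median difference of 0.10. Its called share was 25%, against 1.35% and a median of -0.01 over all genes. The other 9 were not called, among them the receptors Agtr1b (0.38, adjusted p = 0.885) and Agtr2 (-0.18, adjusted p = 0.988), the neutral endopeptidase Mme (0.33, adjusted p = 0.447) and the proton pump accessory subunit Atp6ap2 (0.12, adjusted p = 0.828).

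Ace was read by 35 probe sets, and 33 of them were higher in F. Of these 26 were called on their own, all higher in F, where 0.741% of all probe sets were called. The single differences ran from -0.26 to 2.53. The 8 measured genes on either side of Ace on chromosome 10 were not called, with differences between -0.20 and 0.22. The 250 bases before the Ace start are shown because Ace changed while its neighbours gave no call. Capitals mark matches to 5 motifs searched on both strands: the TATA box spelled TATAAA, the CCAAT box, the GC box spelled GGGCGG, the core AGGTCA bound by many nuclear receptors, and TGACNNNGC, the core of the antioxidant response element. Of 33469 RefSeq promoter windows of the same length in build GRCr8, 12.9% held TATAAA, 34% CCAAT, 30.5% GGGCGG, 14.1% AGGTCA and 10.1% TGACNNNGC. The sequence is that of the reference rat, neither F nor L.
Ace, chr10:91409879-91410128, plus strand: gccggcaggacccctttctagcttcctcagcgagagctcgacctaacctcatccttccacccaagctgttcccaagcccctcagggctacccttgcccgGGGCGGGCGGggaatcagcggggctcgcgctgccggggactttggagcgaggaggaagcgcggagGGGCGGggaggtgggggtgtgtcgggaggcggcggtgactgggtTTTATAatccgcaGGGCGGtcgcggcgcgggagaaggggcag
It holds 4 GC boxes, of which the 2 farthest from the start overlap, and a TATA box on the opposite strand 42 bases before the start. A match says only that the letters are present.

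Aldo-keto reductases gave the largest rises. Akr1c2, of a family that reduces steroids and other ketones, read 6.1, 6.84, 5.99 and 5.64 in F, against 3.16, 3.5, 3.37 and 3.28 in L. The L values sat near the bottom of the array's range and the F values close to its median. The difference was 2.82 ± 0.25 (SE; limma adjusted p = 1.03e-10). No detection call was used here, so the signal in L may not be above background and no fold is given. All 10 of its probe sets were higher in F, 9 of them called. Akr1b8, which reduces aldehydes, read 7.58, 7.29, 6.83 and 7.54 in F, against 4.7, 5.47, 4.78 and 5.22 in L, with no overlap. It was 2.27 ± 0.45 (SE) or 4.81-fold higher in F (limma adjusted p = 0.00192). Akr1b10, its measured neighbour on chromosome 4 and a retinal and aldehyde reductase, read 8.8, 8.84, 8.53 and 8.5 in F, against 6.92, 7.43, 7.4 and 7.02 in L. That difference of 1.48 ± 0.35 (SE; limma adjusted p = 0.016) lost its call without replicate 1 or 2 of F or replicate 1 of L (adjusted p 0.0519, 0.0559 and 0.071). Rdh16, a microsomal retinol dehydrogenase, went the other way, with 8.27, 8.05, 8.22 and 8.01 in F, against 9.18, 9.37, 9.51 and 9.26 in L, a difference of -1.19 ± 0.16 (SE; limma adjusted p = 1.6e-06). In the list of 23 aldo-keto reductases and retinol dehydrogenases 3 were higher and 1 was lower in F, and 19 were not called, among them Akr1b1 (0.09), Akr1a1 (-0.12), Akr1c3 (-0.07) and Akr1c14 (-0.06). The list median was 0.03. The called share was 17.4%, against 1.35% of all genes, in a list chosen with earlier results of these data known. Members of such families resemble each other in sequence, and how far a probe set reads its neighbours was not tested. The Akr1c2 window is shown because this gene had the largest rise, and it holds none of the 5 motifs.
Akr1c2, chr17:70717881-70718130, minus strand: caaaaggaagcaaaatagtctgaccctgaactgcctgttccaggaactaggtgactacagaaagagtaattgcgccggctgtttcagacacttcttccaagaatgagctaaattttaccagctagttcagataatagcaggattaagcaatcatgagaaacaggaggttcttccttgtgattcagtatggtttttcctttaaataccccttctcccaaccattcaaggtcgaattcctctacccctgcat

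The cytochrome P450 genes called were lower in F, although quantile normalization added 2 higher calls (2 higher and 7 lower). Of 51 measured, 4 were lower, 0 were higher and 47 were not called, so 7.84% were called, against 1.35% of all genes. At an unadjusted limma p under 0.05 there were 16, 6 higher and 10 lower, where 8.37% of all genes passed. The list median was 0.01. Cyp2d5 read 3.79, 4.78, 3.7 and 4.55 in F, against 7.08, 7.67, 7.22 and 5.86 in L, a difference of -2.75 ± 0.43 (SE; limma adjusted p = 4.94e-05). It rests on 3 probe sets with differences of -5.45, -2.40 and -1.45. Cyp2d2 was a strong signal in both strains, with 9.08, 9.38, 9.14 and 9.1 in F, against 10.86, 10.76, 10.75 and 10.18 in L (-1.46 ± 0.16, SE; limma adjusted p = 4.57e-08), and 12 of its 13 probe sets were called lower. Cyp2d1 differed by -0.97 ± 0.18 (SE; limma adjusted p = 0.000463). The 5 measured Cyp2d genes stand side by side on chromosome 7. The other two, Cyp2d3 (-0.43, adjusted p = 0.0753) and Cyp2d4 (-0.41, adjusted p = 0.302), were not called, and neither were the 4 measured genes before the cluster or the 8 after it. These enzymes oxidise many basic drugs. Cyp2c11, the male-predominant steroid hydroxylase of rat liver, read 6.71, 6.79, 7.2 and 7.3 in F, against 8.3, 8.64, 8.78 and 8.81 in L. Its difference of -1.63 ± 0.40 (SE; limma adjusted p = 0.0213) lost its call without replicate 1 or 2 of F or replicate 2, 3 or 4 of L (adjusted p 0.0568 to 0.0828). Cyp1a1, the target of the aryl hydrocarbon receptor whose promoter drives the transgene, read 4.44, 4.33, 4.34 and 4.98 in F, against 4.03, 3.91, 4.13 and 4.41 in L. The groups overlapped and the difference of 0.40 ± 0.41 (SE) was not called (limma adjusted p = 0.955). Without replicate 4 of F the difference was 0.25. None of the 10 measured aryl hydrocarbon receptor targets was called by limma, and 1 had an unadjusted p under 0.05.

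Acsm5, a mitochondrial enzyme that joins medium-chain fatty acids to coenzyme A, had the smallest p of all genes. It read 5.68, 5.67, 5.22 and 5.65 in F, against 8.09, 7.89, 8.09 and 7.75 in L. The strains were far apart relative to their spread, at -2.40 ± 0.11 (SE) or 5.27-fold lower in F (limma adjusted p = 2.81e-20), and all 18 probe sets were lower in F, 17 of them called. Its neighbours on chromosome 1 did not move as a block. Gp2, a membrane glycoprotein related to uromodulin, stands 3 measured genes before it and read 8.57, 8.99, 8.5 and 8.24 in F, against 6.59, 6.99, 7.12 and 6.22 in L. It was higher in F by 1.84 ± 0.26 (SE; limma adjusted p = 9.19e-06). Umod, between them, differed by 0.01 (adjusted p = 0.995) and Pdilt by 0.15 (adjusted p = 0.782). After Acsm5 came Acsm2 at -0.14 (adjusted p = 0.867), Acsm4 at 0.12 (adjusted p = 0.9) and Thumpd1 at 0.19 (adjusted p = 0.968). Acsm3, a further acyl-CoA synthetase, was higher in F by 0.93 ± 0.21 (SE; limma adjusted p = 0.0101), and lost its call without replicate 3 of F or replicate 1 of L (adjusted p 0.0564 and 0.0754). The carboxylesterase Ces1e read 6.41, 6.33, 6.59 and 6.42 in F, against 7.84, 7.98, 8.08 and 7.76 in L (-1.48 ± 0.19, SE; limma adjusted p = 9.72e-07). In the list of 9 acyl-CoA synthetases and carboxylesterases 1 was thus higher and 2 were lower in F, with a median of 0.02. The called share was 33.3%, against 1.35% over all genes, but this list was chosen with earlier results of these data known. The Acsm5 window, shown because of that p, holds the nuclear receptor core at 2 places on the opposite strand, 135 and 85 bases before the start.
Acsm5, chr1:183302259-183302508, plus strand: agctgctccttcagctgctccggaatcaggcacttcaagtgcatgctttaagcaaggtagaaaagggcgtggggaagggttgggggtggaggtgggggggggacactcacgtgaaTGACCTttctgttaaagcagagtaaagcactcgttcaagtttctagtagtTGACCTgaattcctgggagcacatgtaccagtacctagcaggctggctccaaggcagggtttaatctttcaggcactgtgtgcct

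P2rx4 and P2rx7, ATP-gated cation channels encoded side by side on chromosome 12, were both higher in F. P2rx4 read 8.68, 8.75, 8.56 and 8.72 in F, against 7.37, 7.47, 7.32 and 6.88 in L, a difference of 1.41 ± 0.17 (SE; limma adjusted p = 3.86e-07). P2rx7 read 5.62, 5.67, 5.51 and 5.44 in F, against 4.46, 4.18, 4.74 and 4.46 in L, a difference of 1.10 ± 0.19 (SE; limma adjusted p = 0.000175). Neither pair of groups overlapped. The 7 measured genes before P2rx4 differed by -0.19 to 0.27 and the 8 after P2rx7 by -0.10 to 0.16, and none of them was called. Both windows are shown because the pair moved together: P2rx4 holds TGACNNNGC 171 bases before its start, and P2rx7 holds it on the opposite strand at 111 bases, overlapping a GC box, with a further GC box at 50 bases.
P2rx4, chr12:39523090-39523339, minus strand: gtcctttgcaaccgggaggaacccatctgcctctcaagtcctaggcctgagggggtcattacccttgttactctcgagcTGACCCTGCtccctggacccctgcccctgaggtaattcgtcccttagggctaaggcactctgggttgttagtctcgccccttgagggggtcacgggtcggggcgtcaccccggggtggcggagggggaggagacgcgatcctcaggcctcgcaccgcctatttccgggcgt
P2rx7, chr12:39594923-39595172, minus strand: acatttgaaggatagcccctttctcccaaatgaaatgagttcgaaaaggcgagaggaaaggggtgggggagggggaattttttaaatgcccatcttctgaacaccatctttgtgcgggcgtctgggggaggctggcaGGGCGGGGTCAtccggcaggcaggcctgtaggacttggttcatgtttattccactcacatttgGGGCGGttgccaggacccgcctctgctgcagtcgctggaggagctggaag
Over the genome 7 pairs of adjacent measured genes were both called. In 4 pairs both genes went the same way, these being P2rx4 with P2rx7, Akr1b8 with Akr1b10, Cyp2d5 with Cyp2d1, and the aldehyde oxidases Aox1 (0.57) with Aox3 (0.53). In 3 pairs they went opposite ways, Scrn2 (-0.88) with Lrrc46 (0.77), Klkb1 (1.14) with Fat1 (-0.45), and the glutathione transferases Gstt2 (0.54) with Gstt1 (-0.72). Aox1, Aox3, Scrn2, Lrrc46 and Fat1 were named for their position after their values were seen.

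The other large rises were spread over several functions. Tspan1, a tetraspanin, read 8.6, 8.5, 8.26 and 8.29 in F, against 6.81, 6.63, 7.24 and 6.18 in L (1.70 ± 0.21, SE; limma adjusted p = 3.86e-07), and all 8 of its probe sets were higher in F. Lilrb4, an inhibitory receptor of leukocytes, read 6.79, 7.07, 7.21 and 6.83 in F, against 5.46, 5.69, 6.08 and 4.78 in L (1.47 ± 0.27, SE; limma adjusted p = 0.000684). Klkb1, plasma prekallikrein, was a dim signal with 4.57, 4.84, 4.79 and 4.68 in F, against 3.88, 3.46, 3.51 and 3.46 in L (1.14 ± 0.16, SE; limma adjusted p = 4.03e-06). None of these pairs of groups overlapped. Tinag, a protein of tubular basement membranes, was higher in F by 1.04 ± 0.19 (SE; limma adjusted p = 0.00042) and Slc7a12, of a family of amino acid transporters, by 1.20 ± 0.19 (SE; limma adjusted p = 6.1e-05). Slc25a21, a mitochondrial oxodicarboxylate carrier, was higher by 0.94 ± 0.19 (SE; limma adjusted p = 0.0029). Apobec1, the cytidine deaminase that edits Apob mRNA, was higher by 1.23 ± 0.27 (SE; limma adjusted p = 0.00675), but by 0.95 and no longer called without replicate 4 of L (adjusted p = 0.0696). The lysosomal hyaluronidase Hyal1 was higher by 0.95 ± 0.23 (SE; limma adjusted p = 0.0166), a call lost without replicate 2 of F (adjusted p = 0.0654) or replicate 4 of L (0.68, adjusted p = 0.13).

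Klk1c9, a serine protease of the rat tissue kallikrein family, varied widely, with 5.63, 6.06, 4.63 and 5.95 in F, against 7.56, 6.33, 8.5 and 7.04 in L (-1.79 ± 0.32, SE; limma adjusted p = 0.000358). Its 5 probe sets ran from -2.72 to -0.05, with 2 called. Over 17 processing settings it ran from -2.30 to -1.10 and lost its call in 2 (limma adjusted p up to 0.135). It was called at day 10 (-1.19, limma adjusted p = 0.0237). It was not called at day 7 (-0.75, limma adjusted p = 0.35) or in FL minus LF (-0.56, limma adjusted p = 0.415). Lcn2, which binds iron-carrying siderophores and is a marker of tubular injury, read 3.51, 3.36, 3.24 and 3.39 in F, against 4.64, 5.12, 5.37 and 4.57 in L (-1.55 ± 0.26, SE; limma adjusted p = 0.00016). Its F values sat near the bottom of the array's range. The 7 probe sets of Lcn2 ran from -2.41 to 0.19, with 3 called. Lcn2 was called at day 10 (-1.55, limma adjusted p = 0.000125), but not at day 7 (-0.89, limma adjusted p = 0.0656) or in FL minus LF (-0.80, limma adjusted p = 0.0938). Abcb10, a transporter of the mitochondrial inner membrane, read 6.88, 6.65, 6.66 and 6.85 in F, against 7.92, 8.11, 8.09 and 7.62 in L (-1.17 ± 0.14, SE; limma adjusted p = 1.87e-07). The groups did not overlap in any of these genes. Sult1b1, a cytosolic sulfotransferase, differed by -1.25 ± 0.27 (SE; limma adjusted p = 0.00615) and Gng7, a G protein gamma subunit, by -1.14 ± 0.22 (SE; limma adjusted p = 0.00117). Erc2, a scaffold protein of synapses, averaged 3.74 ± 0.17 in F and 4.83 ± 0.12 in L (SD, n = 4 each; limma adjusted p = 3.47e-07). Ptprq, a receptor tyrosine phosphatase, averaged 3.42 ± 0.11 in F and 4.50 ± 0.24 in L (SD, n = 4 each; limma adjusted p = 4.71e-06). Hpdl, related to the tyrosine-degrading enzyme Hpd, differed by -1.09 ± 0.27 (SE; limma adjusted p = 0.025), and lost its call without replicate 2, 3 or 4 of F or replicate 1, 2 or 3 of L (adjusted p 0.0524 to 0.144).

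Genes of the major histocompatibility complex (RT1 in the rat), whose products present peptides to T cells, gave 2 calls of 36, both lower in F, with a list median of 0.07. That is 5.56%, against 1.35% of all genes. At an unadjusted limma p under 0.05 there were 10, of which 7 were higher and 3 lower in F, where 8.37% of all genes passed. With quantile normalization added the calls were 2 higher and 2 lower, and with the mean of probe sets 1 higher and 3 lower. RT1-N2 read 4.81, 4.53, 4.81 and 4.41 in F, against 5.55, 5.76, 6.12 and 5.47 in L (-1.08 ± 0.16, SE; limma adjusted p = 1.04e-05). RT1-CE5 read 6.6, 6.47, 6.88 and 6.19 in F, against 7.18, 7.4, 7.88 and 7.34 in L (-0.91 ± 0.19, SE; limma adjusted p = 0.00282). Both are class I genes, and the arrays did not overlap. Their probe sets differed unequally (limma diffSplice adjusted p = 4.54e-05 for RT1-N2 and 2.02e-09 for RT1-CE5). Those of RT1-N2 ran from -2.85 to -0.15, with 3 of 6 called. Those of RT1-CE5 ran from -3.35 to 0.80, with 3 of 8 called. The class II genes were not called, with RT1-Da at 0.51 (adjusted p = 0.116), RT1-Bb at 0.47 (adjusted p = 0.1) and Cd74 at 0.31 (adjusted p = 0.424). Chromosome 20, which holds RT1, had 10 called of 308 measured genes (3.25%, against 1.35% of all genes). Among these, chosen after their values were seen, the olfactory receptor gene Or2n1e had the largest difference of all called genes, with 5.32, 4.35, 4.18 and 4.1 in F, against 9.15, 9.51, 9.58 and 9.04 in L (-4.83 ± 0.45, SE; limma adjusted p = 4.58e-10). It is read by 1 probe set. So is the ubiquitin-like gene Ubd, with 6.31, 6.41, 6.01 and 6.07 in F, against 4.76, 5.33, 3.67 and 5.52 in L (1.38 ± 0.37, SE; limma adjusted p = 0.0414). The Ubd call was lost without any single F array or without replicate 1 or 3 of L (adjusted p 0.0701 to 0.321). The third called gene with under 3 probe sets was Sod3, the extracellular superoxide dismutase, at 0.59 (adjusted p = 0.0166).

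Markers of kidney segments and other cells gave few calls. The called share was 3.33% of proximal tubule, 14.3% of collecting duct, 9.09% of podocyte and 11.1% of smooth muscle, mesangium and pericyte genes. Over all genes it was 1.35%, but these lists were short and chosen with earlier results of these data known. Fewer cells of a type and less RNA per cell cannot be told apart in whole kidney. Of 30 proximal tubule genes the organic anion transporter Slco1a6 was the only call, lower in F with 10.28, 10.4, 10.34 and 10.21, against 11.01, 11.1, 11.25 and 10.95 in L (limma adjusted p = 0.000136). The list levels, as the mean log2 value of the members, were 10.58 to 10.73 in F and 10.45 to 10.74 in L. Of 21 collecting duct genes 2 were higher and 1 was lower in F (median 0.05). The higher ones, Tspan1 and P2rx4, had been put in that list with their difference known, and the lower one was Krt18, a keratin of simple epithelia, at -0.81 (limma adjusted p = 0.00305). Of 11 podocyte genes Ptprq, also listed with its difference known, was the 1 call (median -0.03), with a list level of 6.78 to 6.88 in F and 6.65 to 7.16 in L. Of 9 smooth muscle, mesangium and pericyte genes Cspg4, a pericyte proteoglycan, was the 1 call at -0.50 (limma adjusted p = 0.00875), lost without replicate 3 of L (adjusted p = 0.0868). That list's level was 7.00, 6.98, 6.99 and 6.95 in F, against 7.29, 7.14, 7.18 and 6.90 in L, and its median -0.17. The level of the 9 endothelial genes, none of them called by limma, was 7.20, 7.14, 7.10 and 7.14 in F, against 7.33, 7.25, 7.42 and 7.11 in L. In both lists the first 3 L arrays lay above all F arrays and the fourth did not, as was also so for the array medians.

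Of the 16 macrophage and monocyte genes limma called 0, with 3 at an unadjusted p under 0.05, all lower in F. The list level was 5.99, 6.29, 6.06 and 6.22 in F, against 6.48, 6.44, 6.50 and 6.04 in L. The first 3 L arrays thus lay above all F arrays and the fourth among them. Array medians also had the first 3 L arrays, at 6.46, 6.49 and 6.56, above all F arrays, at 6.42 or less, and the fourth at 6.18. So did the levels of the podocyte, tubular injury, oxidative stress, clock and fatty acid oxidation lists. The order is therefore not particular to macrophage genes. The list median was -0.22, and -0.30 without replicate 4 of L, against -0.01 and -0.05 over all genes. The leukocyte receptor Lilrb4 was higher in F while none of these markers was called higher. The part of macrophage content in these differences was not tested. Replicate 4 of L was the lowest of the 8 arrays in 23 of the 36 list levels. Without it the median was -0.30 in the smooth muscle, mesangium and pericyte list, -0.26 in endothelium, -0.16 in podocytes, -0.07 in the collecting duct and -0.05 in the proximal tubule. Among the other lists it was -0.21 for immediate early genes and 0.08 for cell cycle genes. List members that gained a call without it were Cidec, a lipid droplet protein of the fat list (-0.70, adjusted p = 0.0381), and Cyp4f1 (-0.50, adjusted p = 0.0353), and those that lost it were Ctsd, Insig1, Gstt2 and Cyp2c11.

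The remaining lists with calls held 1 to 4 each. The called share was 8.33% of tubular injury, 8.82% of transferase, 5.56% of fatty acid oxidation and 4.35% of sterol and fatty acid synthesis genes. Over all genes it was 1.35%. Of 24 tubular injury genes 2 were lower in F, Lcn2 and Krt18 (median 0.03). Havcr1, the injury molecule of the proximal tubule, differed by -0.33 (adjusted p = 0.979). Of 34 glutathione, glucuronic acid and sulfate transferases Gstt2 was higher, Gstt1 and Sult1b1 were lower in F (median -0.07). Gstt1 read 8.88, 8.91, 8.72 and 8.75 in F, against 9.82, 9.3, 9.7 and 9.32 in L (limma adjusted p = 0.00042). The Gstt2 call (adjusted p = 0.0352) was lost without replicate 2, 3 or 4 of F or replicate 2 or 4 of L (adjusted p 0.0832 to 0.181). Of 36 fatty acid oxidation and peroxisome genes the mitochondrial thiolase Acaa2 was higher by 0.56 (adjusted p = 0.00741) and Pex11a, which divides peroxisomes, lower at -0.83 (adjusted p = 0.0213), with a median of -0.16. Acaa2 lost its call without replicate 2 of F (adjusted p = 0.0538), and Pex11a without replicate 3 or 4 of F or replicate 1 or 3 of L (adjusted p 0.0559 to 0.133). Of 23 sterol and fatty acid synthesis genes Insig1, which restrains sterol synthesis, was higher by 0.49 (adjusted p = 0.0324; median 0.24), a call lost without replicate 3 or 4 of F or replicate 2 or 4 of L (adjusted p 0.104 to 0.235). Without replicate 4 of L the median of that list was 0.09.

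Of 20 complement and coagulation genes complement C4b was higher in F, with 8.69, 8.7, 8.49 and 8.55, against 7.98, 7.97, 8.11 and 7.59 in L (0.69 ± 0.15, SE; limma adjusted p = 0.00528), and 70 of its 73 probe sets were higher in F (list median 0.03). Of 10 kallikrein-kinin genes Klkb1 was the 1 call (median -0.12), and tissue kallikrein Klk1 differed by -0.14 (adjusted p = 0.956). Klk1c9, called lower in F at -1.79 as given above, was not in that list. Of 24 matrix genes the gelatinase Mmp9 was higher by 0.63 (adjusted p = 0.02; median 0.01), lost without replicate 1, 2 or 4 of F or replicate 1 or 3 of L (adjusted p 0.0642 to 0.136). Of 203 solute carriers 2 were higher, Slc7a12 and Slc25a21, and 2 lower, Slco1a6 and the glutamine transporter Slc38a3 (-0.63, adjusted p = 0.00146), with a median of 0.03. Their called share of 1.97% was near the 1.35% of all genes. The share was 5% in the complement and coagulation list, 10% in the kallikrein-kinin list and 4.17% in the matrix list. In the other 19 lists limma called 0 of 264 members, 26 of which had an unadjusted p under 0.05, where 8.37% of all genes did. These were the lists of loop of Henle with distal tubule (median 0.05), endothelium (-0.21), macrophages (-0.22), lymphocytes (0.04), red cells (0.09), fat (0.02), adrenal (0.02), liver (-0.11), skeletal muscle (-0.05), aryl hydrocarbon receptor targets (0.04), oxidative stress (-0.13), interferon-induced genes (-0.14), clock genes (-0.09), immediate early genes (-0.03), corticosteroid response (-0.02), ion-pumping ATPases (0.06), cell cycle (0.18), respiratory chain (0.08) and heat shock proteins (0.03).

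FL and LF rats gave a further reading with carrier alone. Their arrays do not enter the means of F and L, but they share the estimate of the spread in the limma fit and the summarising of probe sets. FL minus LF had 202 called genes (2.53%), 47 higher (0.588%) and 155 lower in FL (1.94%). Of the 108 genes called between F and L, 51 were called in the same direction in FL minus LF, which is 47.2% of the 108 and 25.2% of the 202. The sign was the same for 102 of the 108, and for 59.2% of all genes. The count of 202 was 128 without replicate 3 of FL, 124 without replicate 1 of LF and 112 without replicate 2 of LF. With quantile normalization added it was 397, split into 177 higher and 220 lower. Of the 30 genes with the largest rises and falls 22 were called in the same direction in FL minus LF. Acsm5 differed by -2.60 there (limma adjusted p = 1.23e-21), Akr1c2 by 3.14 (limma adjusted p = 3.22e-12) and Gp2 by 2.11 (limma adjusted p = 4.28e-07). Akr1b8 (0.63, adjusted p = 0.535) and Akr1b10 (0.24, adjusted p = 0.8) were not called. Akr1b8 read 6.96, 4.9, 6.4 and 4.41 in FL, against 5.26, 5.46, 4.71 and 4.7 in LF, so that 2 FL arrays lay above all LF arrays and 2 among or below them.

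**Figure D2:**
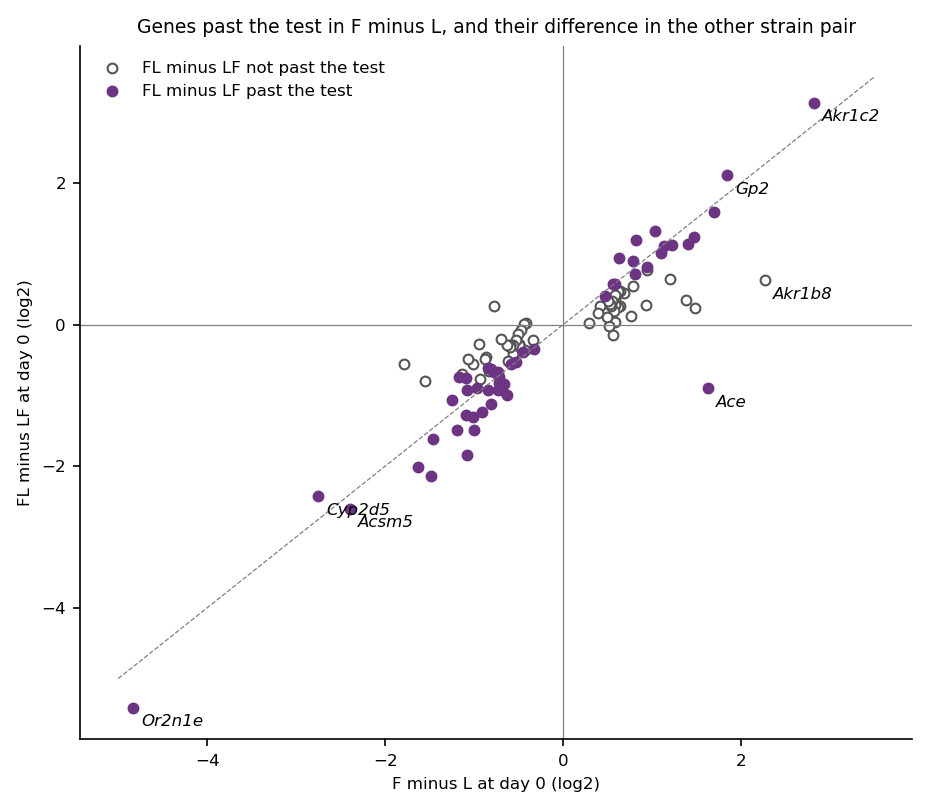
F minus L at day 0 (x axis, log2) against FL minus LF at day 0 (y axis, log2) for the 108 genes called between F and L. Filled points were called in FL minus LF as well, the dashed line marks equal differences, and of the 6 genes with opposite signs Ace at 1.63 and -0.90 is the filled point farthest from the line.

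Ace was the 1 gene called in opposite directions in the 2 pairs. It read 6.28, 5.99, 6.08 and 6.47 in FL, against 7.04, 7.31, 6.99 and 7.05 in LF, so that FL lay below LF on every array (-0.90, limma adjusted p = 0.000343). F minus L less FL minus LF tests the difference between the pairs, and it called 3 genes (0.0375%), 2 higher (0.025%) and 1 lower (0.0125%), with 449 at an unadjusted p under 0.05 (5.61%). Ace differed between the pairs by 2.53 ± 0.23 (SE; limma adjusted p = 5.13e-10). Dnajb12, a chaperone partner of the endoplasmic reticulum, differed by 2.65 (limma adjusted p = 6.81e-05) with 8.08 ± 0.04 in F and 8.07 ± 0.13 in L (SD, n = 4 each). FL read 4.65, 5.06, 4.79 and 7.4, against 8.05, 8.21, 8.2 and 7.97 in LF, so that 3 FL arrays were far below all others. Ndrg1, a stress-responsive cytoplasmic protein, differed by -0.79 (limma adjusted p = 0.00527), with 11.85 ± 0.07 in F and 12.06 ± 0.17 in L, and 11.79 ± 0.13 in FL and 11.21 ± 0.15 in LF. The count of 3 was 6 without replicate 1 of F, 6 without replicate 4 of L and 7 without replicate 4 of FL.

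**Figure D3:**
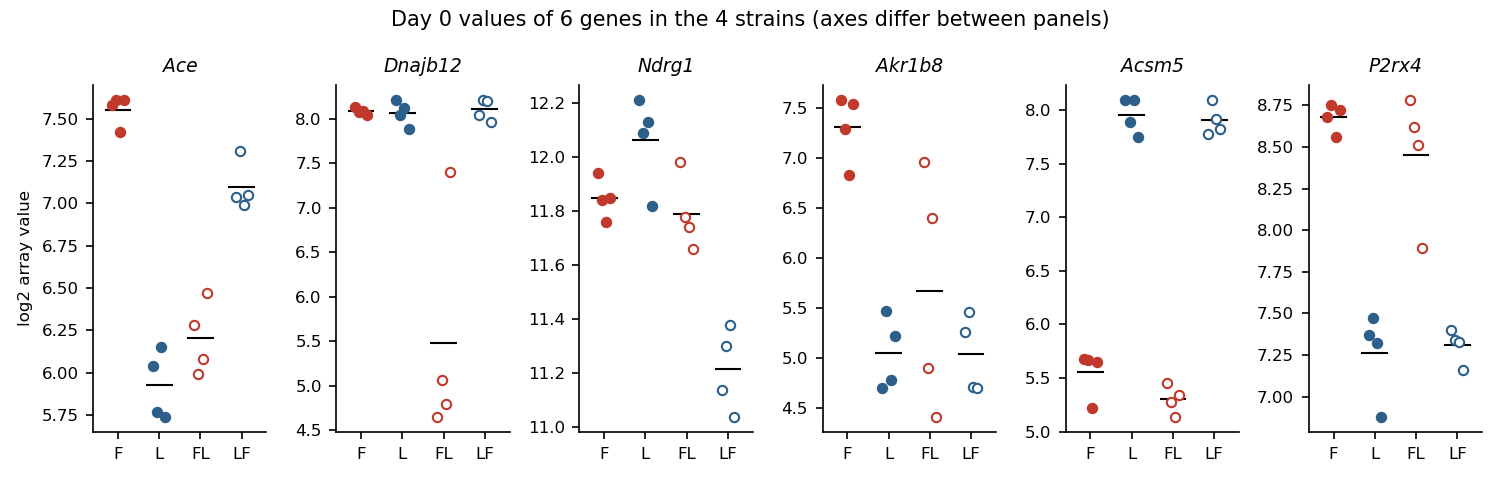
Day 0 log2 array values (y axis, a separate range in each panel) of 6 genes in F, L, FL and LF, with points for single arrays and lines for means of 4. Ace is high in F and LF and low in L and FL, Dnajb12 is low in FL with the fourth array at 7.40, and Acsm5 and P2rx4 keep the order of F against L in FL against LF.

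F and L were also measured after I3C, in other arrays of the same fit. F minus L at day 7 had 161 called genes (2.01%), 95 higher (1.19%) and 66 lower in F (0.825%). At day 10 it had 253 (3.16%), 52 higher (0.65%) and 201 lower (2.51%). Of the 108 called with carrier, 65 were called in the same direction at day 7 (60.2% of the 108, 40.4% of the 161) and 73 at day 10 (67.6% of the 108, 28.9% of the 253). Signs were the same in 106 of 108 at day 7 and 107 of 108 at day 10, against 56.1% and 60% of all genes. In all 3 of these readings, FL minus LF included, 36 genes were called in the same direction. The difference between days was tested itself, and limma called 0 genes for day 7 less day 0 (312 or 3.9% at an unadjusted p under 0.05) and 0 for day 10 less day 0 (479 or 5.99%). The day 7 count was 103 without replicate 1 of F-07 and 106 without replicate 3 of F-07. The day 10 count was 557 without replicate 1 of F-10, 128 without replicate 4 of F-10, and 153 and 154 without replicate 1 or 3 of L-10. With quantile normalization added it was 348, split into 152 higher and 196 lower.

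Of the 30 largest rises and falls 24 were called at day 7 and 27 at day 10. Acsm5 differed by -2.18 at day 7 and -2.49 at day 10, and Ace by 1.20 and 1.10, against 1.63 with carrier. Hyal1 differed by 0.71 after 7 days (adjusted p = 0.106), and after 10 days by -0.09 (adjusted p = 0.856). Among genes outside the 30, Mmp9 differed by 0.02 at day 7 and 0.01 at day 10 (adjusted p = 0.998 and 0.981), against 0.63 with carrier. Cyp1a1, not called with carrier, was higher in F by 1.47 after 7 days of I3C (limma adjusted p = 0.0432), and after 10 days by 1.83 (limma adjusted p = 0.00497). Its difference from day 0 was not called at either day.

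**Figure D4:**
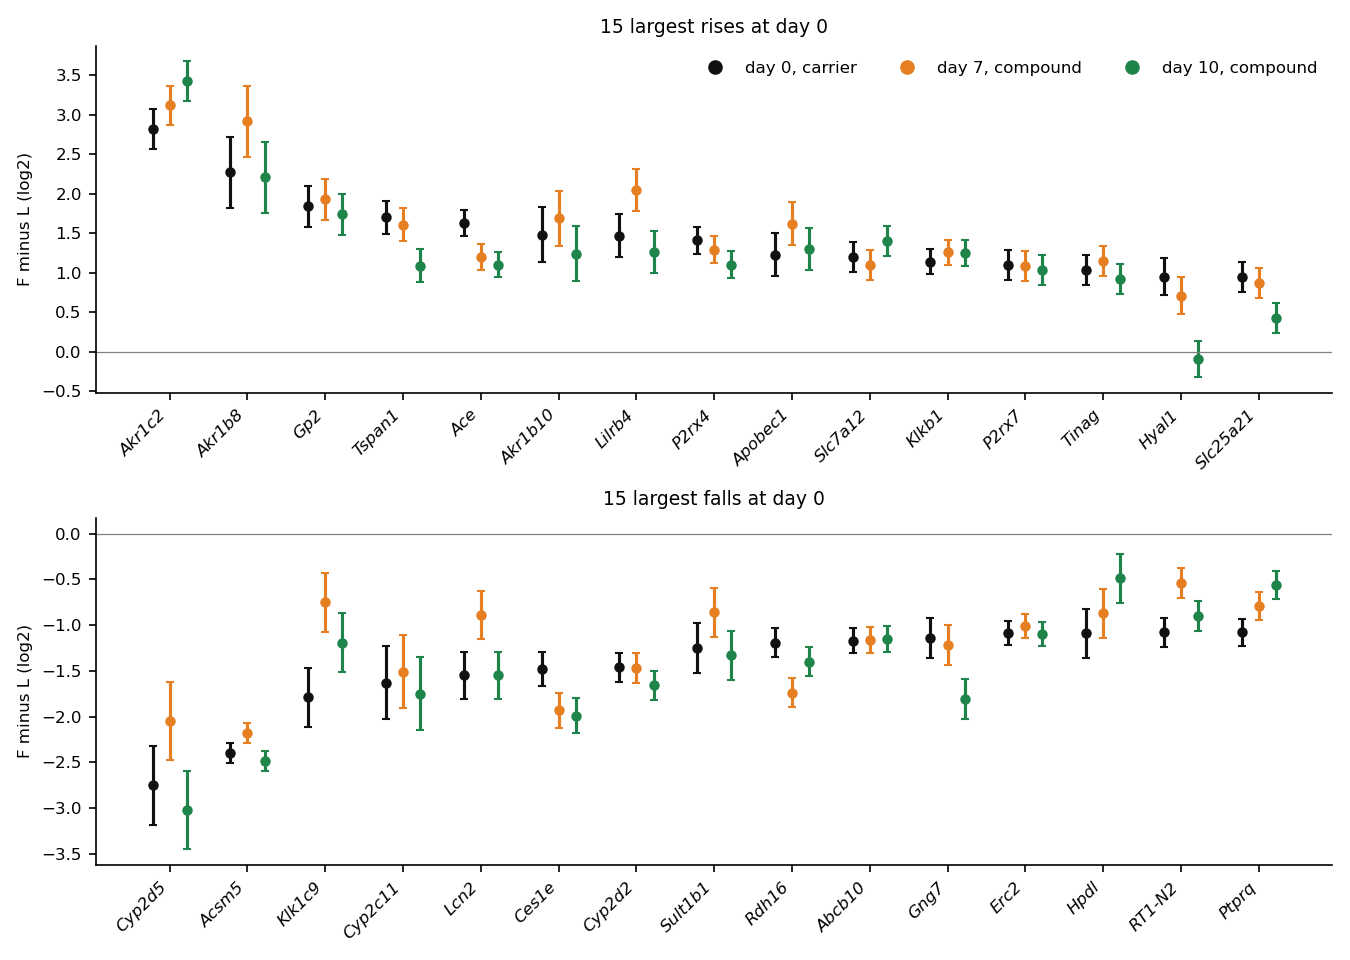
F minus L (y axis, log2) with carrier at day 0 and with I3C at days 7 and 10 for the 15 largest rises (top) and 15 largest falls (bottom) at day 0. Points are limma estimates and bars their SE; the sign is the same at all 3 days in all but Hyal1, which is -0.09 at day 10.

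Exon arrays also allow a difference in part of a gene to be told from one over the whole gene. Of 7510 genes with 2 or more probe sets, limma diffSplice called 126 (1.68%) for unequal differences among their probe sets, and 26 of these were among the 108. The smallest p belonged to Ces1e, whose 23 probe sets ran from -4.0 to 0.15 (adjusted p = 8.79e-38). In Ufsp2, which matures the protein tag UFM1, 1 of 14 probe sets differed by -5.14 and the rest by -0.07 to 0.50, so that the gene value differed by 0.12 (adjusted p = 0.964). In Rgn, which encodes regucalcin, 1 of 9 probe sets differed by -4.56 and the others by -0.03 to 0.14. In RT1-CE16, a class I gene, 3 of 11 probe sets were called higher, at 1.86, 4.80 and 5.33, while the gene value differed by 0.31 (adjusted p = 0.225), or by 1.08 with the mean of probe sets (adjusted p = 4.53e-10). Ctsa, a lysosomal carboxypeptidase, had 3 of 19 probe sets called lower, at -2.50, -1.94 and -1.26. Among the largest differences, Cyp2d2 and Tspan1 had no call for unequal use (adjusted p = 1 in each), whereas Akr1c2, Ace and Acsm5 did (8.6e-12, 8.87e-12 and 5.81e-11). Agt, outside the 30 largest rises and falls, had no such call either. All probe sets had the same sign in 59 of the 108 called genes. Whether base differences between the strains lie under single probe sets was not tested.

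**Figure D5:**
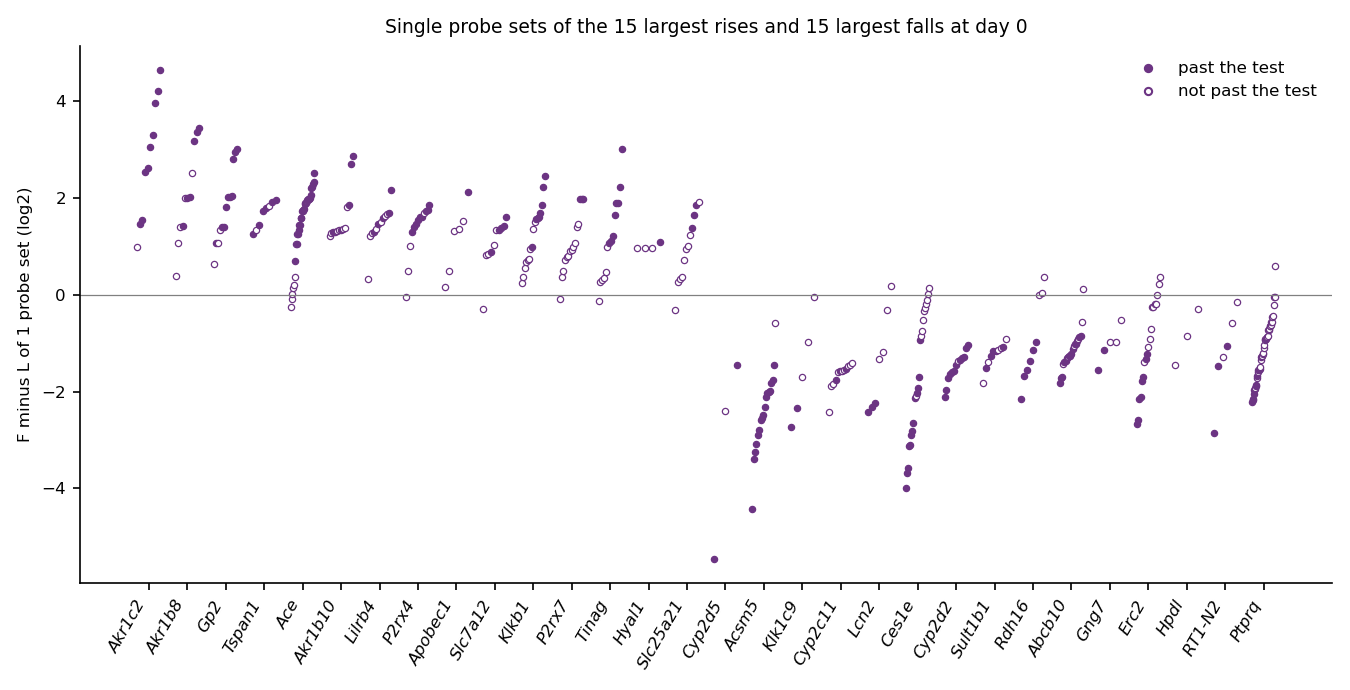
F minus L (y axis, log2) of every probe set of the 15 largest rises (left) and 15 largest falls (right) at day 0, ordered by size within a gene. Filled points passed the limma test over all probe sets; Acsm5 lies wholly below 0, from -4.42 to -0.59, and Ces1e runs from -4.0 to 0.15.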

How the data were processed

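Total RNA from rat kidney was hybridised to exon arrays, 1 per sample, per the labels' protocols. The authors' deposited values are log2 signals per probe set, made with RMA per the submitters' processing notes, which also name limma. The sources used here give no RMA version, genome build or detection filter. Probe sets with 1 gene symbol in the platform annotation (85406 of 92401) were kept, and symbols were updated through the GRCr8 gene table. Probe sets of a gene were combined over 48 arrays by Tukey median polish. This left 7997 genes, read by a median of 9 probe sets each.

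The gene table was fitted in limma (3.58.1, under R 4.3.3), each of 12 groups having its own mean, and adjusted p-values are Benjamini-Hochberg over all genes. Probe set use was tested with diffSplice, and array medians with an exact permutation test. The fit was tested on simulated data with independent noise in each gene and array and no array-wide shift. That run cannot show how such shifts act on the calls made here. Arrays carry no count depth, and their number limits the precision. The genes named are the 15 largest rises and 15 largest falls among called genes with 3 or more probe sets, the called genes for F minus L less FL minus LF, the 5 smallest p for probe set use, up to 4 called members of each list, and Ace, Agt and Cyp1a1. Members, lists and rules were chosen with earlier results of these data known. The replicate number was checked as a pairing, because same-numbered samples have file names with a common start. Deviations of same-numbered F and L arrays correlated at 0.0742, 0.0183, -0.0871 and 0.041, so the number was not taken to pair them. This check covers F-00 and L-00 only and cannot show whether same-numbered arrays share a shift over all 12 groups. Fitting the number as a block raised the calls for F minus L from 108 to 160 at day 0 and from 253 to 682 at day 10. Alternatives were a replicate block, quantile normalization, the mean of probe sets, leaving out the dimmest 33.3% of genes, the compared groups alone and leaving out arrays. Promoter windows are from RefSeq, build GRCr8, and figures were drawn with matplotlib 3.10.9.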

Additional observations from a re-analysis of the deposited data

Results flagged for a closer look

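Single arrays stood apart from the other 3 of their group in 7 of 112 groups of 4 arrays tested, where chance gives about 1 in 20. Ace read 7.42 in replicate 3 of F, below the other F arrays and above all L arrays. Acsm5 read 5.22 in the same array, below the other F arrays, on the side away from L. Klkb1 read 3.88 in replicate 1 of L, above the other L arrays and below all F arrays. RT1-CE16 read 5.99 in that array, likewise the highest of L and below all F arrays. Cyp2d2 read 10.18 and Cyp2d1 read 9.43 in replicate 4 of L, each below the other L arrays and above all F arrays. Cyp1a1 read 4.98 in replicate 4 of F, above all other arrays of both strains.

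The difference between F and L differed from that between FL and LF in 3 genes by the limma test of the difference itself. It was larger by 2.53 for Ace and by 2.65 for Dnajb12, and it was -0.79 for Ndrg1. Dnajb12 rests on FL, where the fourth array at 7.40 lay apart from the 3 others at 4.65 to 5.06. The SD of FL was 1.29 for this gene, while the SE of its difference between the pairs was 0.38. With the compared groups alone, 1 of the 3 genes kept its call. Leaving out all arrays numbered 1, 2 or 3 also kept 1 of them in each case.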

How the results depend on the processing

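Of 55 named genes, 48 were called for F minus L at day 0. Over 17 settings 23 of these kept their call, 25 lost it in at least 1 setting and 0 reversed, while leaving out any single array kept the call of 34. The 108 calls became 238 with quantile normalization (104 shared) and 71 with the compared groups alone (62 shared), and ran from 43 to 114 when arrays were left out. The replicate block gave 160 calls, the 108 among them. It changed other counts more, to 682 at day 10, 384 for FL minus LF, 10 for F minus L less FL minus LF and 199 for probe set use. F minus L at day 7 gave 306 calls with quantile normalization, 104 with the compared groups alone, and 60 to 138 with arrays left out. At day 10 the compared groups alone gave 81 and left-out arrays 99 to 557. FL minus LF gave 397 with quantile normalization and 70 to 355 with arrays left out. F minus L less FL minus LF gave 17 with quantile normalization, 6 without the dimmest genes, 5 with the compared groups alone (1 shared) and 1 to 7 with arrays left out. The day 7 less day 0 difference gave 4 with the compared groups alone and 0 to 1 with arrays left out, and day 10 less day 0 gave 0 with the compared groups alone and 0 to 1 with arrays left out. With single arrays left out, probe set use gave 98 to 121 calls, against 126 with all arrays, and the array median difference ran from -0.13 to 0. In 3 genes without a call the difference changed sign: Dnajb12 with the mean of probe sets (-0.05), without both replicates 4 (-0.03) or with 1 array left out (-0.04 to 0.06, lowest without replicate 4 of L), Ufsp2 with the mean of probe sets (-0.21), and Rgn with that mean (-0.46) or with 1 array left out (-0.05 to 0.17, at -0.05 without replicate 3 of F and -0.02 without replicate 1 of L). RT1-CE16 (1.08, adjusted p = 4.53e-10) and Ctsa (-0.38, adjusted p = 0.044) gained a call with the mean of probe sets. The cause of these moves was not tested.

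With 4 arrays per strain, small differences are not detectable, and a gene without a call is not shown to be alike in both strains. Signals of different genes are not comparable as amounts, since probe sets differ in their response. Erc2, Klkb1 and Ptprq were among the dimmest genes and have no value with those left out.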

Other observations

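The called genes were spread over the chromosomes, in numbers given here as a description with no test. Over all genes 1.35% were called, 62 lower and 46 higher in F. By chromosome the share ran from 0% on chromosome 11 to 3.25% on chromosome 20. Chromosome 7 held 11 called of 537 measured genes (2.05%), of which 10 were lower in F, the Cyp2d genes, Rdh16, Gng7, Krt18 and Ptprq among them. Chromosome 13 held 6 called of 228 (2.63%), all lower in F. Chromosome 1, with the most measured genes at 1184, held 12 (1.01%), 5 higher and 7 lower.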
